A study of Rattus norvegicus with 12 samples.

Results

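MicroRNAs (miRNAs) were compared between cultured rat cortical neurons carrying a short hairpin RNA (shRNA) against Pum2 (shPum2) and neurons carrying a non-targeting shRNA (shNTC). The comparison used 8 of the 12 libraries of the series, 4 of each group, chosen by their labels and matched by replicate number 1 to 4. It covered every name in the tables that denotes a rat miRNA or let-7, which was 685 of 805 small RNA names. Both groups were Sprague Dawley neurons taken at embryonic day 17, given lentivirus at 10 days in vitro and lysed at 14 days in vitro, so lentiviral transduction and expression of an shRNA were common to both. The other 4 libraries carried an shRNA against Stau2 (shStau2), and the design text gives shNTC as the reference and shPum2 as a further control for changes brought by any shRNA. The labels give 1 shRNA name per target. The sources used here do not give the number of hairpin sequences behind that label or the promoter that drove them. The replicates are called biological, and the sources do not say if equal numbers mean a shared neuron preparation. Small RNA counts do not cover the mRNA of Pum2, and how far it was depleted was not analysed here.

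Pumilio 2 is an RNA-binding protein of the PUF family that binds short UGUA-containing motifs in the untranslated ends of mRNAs and lowers their translation and stability. In neurons it sits in dendritic RNA granules and affects dendrite growth and excitability. A miRNA is cut from a hairpin precursor by Drosha and Dicer, and a strand of it is loaded into Argonaute and pairs with target mRNAs mainly through its seed, bases 2 to 8. Pumilio proteins and miRNAs meet on several mRNAs: binding of Pumilio can open a folded site for a miRNA, and Pum2 mRNA is itself a target of miR-134 in dendrites.

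The sequences below belong to the miRNAs on which the comparison turned. All are RefSeq mature sequences with annotation on GRCr8, written 5′ to 3′ with the seed in capitals, and 613 of the 685 names had an entry. The first pair shares a seed and differs at the single substitution U19A, counted from the 5′ end with the base of miR-23a-3p first, which is why it is shown together.
miR-23a-3p: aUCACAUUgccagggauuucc
miR-23b-3p: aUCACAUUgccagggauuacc
The next were lower in every shPum2 library than in the shNTC library of the same number.
miR-21-5p: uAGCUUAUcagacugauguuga
miR-382-3p: aAUCAUUCacggacaacacuu
miR-376c-3p: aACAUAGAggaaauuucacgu
The miR-29 guide strands share a seed, and their values parted between libraries.
miR-29a-3p: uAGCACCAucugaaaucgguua
miR-29b-3p: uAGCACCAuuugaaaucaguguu
miR-29c-3p: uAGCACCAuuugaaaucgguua
All of the following but miR-1-3p had positive values and are given below by library, and miR-1-3p is added because it shares the seed of miR-206-3p.
miR-206-3p: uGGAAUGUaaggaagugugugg
miR-1-3p: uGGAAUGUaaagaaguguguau
miR-3473: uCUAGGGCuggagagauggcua
miR-33-5p: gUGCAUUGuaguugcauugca
miR-449a-5p: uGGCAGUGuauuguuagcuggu
miR-183-5p: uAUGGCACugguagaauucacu
The last are miRNAs that earlier work ties to Pumilio proteins.
miR-134-5p: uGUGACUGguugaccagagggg
miR-221-3p: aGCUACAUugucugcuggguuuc
miR-222-3p: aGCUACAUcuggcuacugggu
miR-503-5p: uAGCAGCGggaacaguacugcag

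The 8 libraries held between 3836349 and 5415763 counts each. Library totals, the number of miRNA names detected, the share of counts on names of Piwi-interacting RNAs (piRNAs) and the share taken by the 5 most abundant miRNAs did not differ detectably between shPum2 and shNTC (exact two-sided permutation p between 0.486 and 1, adjusted p = 1 for each of 4 tests, smallest possible p 0.0286). Levels below are CPM, a library's counts of a miRNA relative to its miRNA total, after scaling by the trimmed mean of M-values (TMM), so they are shares of a library and not amounts per cell. Libraries of the same number deviated together from their group means, with correlations across miRNAs of 0.38 to 0.54 for the 4 pairs and -0.37 to 0.08 for the 12 other combinations. Differences are therefore given from the test without the number and, where it changes a call or for miRNAs described in full, from the test with the number as a replicate block. The pair of libraries numbered 2 stood apart from the others. Over the 230 miRNAs with a mean of at least 100 CPM, the SD of the log2 difference within a pair was 0.34 for number 2, against 0.21, 0.18 and 0.26 for numbers 1, 3 and 4.

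In the neurons with shPum2, the miRNA profile differed little from that with the non-targeting shRNA, and edgeR called 1 miRNA with the replicate block and 0 without it. Without the block, 0 of 628 tested miRNAs passed edgeR's quasi-likelihood test at a Benjamini-Hochberg adjusted p of 0.05 (0% called), 9 had an unadjusted p under 0.05 (1.43%), and DESeq2 also called 0, with 7 under 0.05 unadjusted. With the block, 1 of 628 passed (0.159%) and 46 had an unadjusted p under 0.05 (7.32%). The miRNA that passed was miR-23a-3p, which fell. DESeq2 with the block called 2, miR-23a-3p and miR-21-5p, both lower.

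The differences themselves were small. The median log2 fold change was 0.00, 316 miRNAs had positive and 312 negative values, and all lay between -0.98 and 0.59. The absolute log2 fold change was under 0.25 for 512 of the 628 miRNAs (81.5%) and under 0.5 for 610 (97.1%). Among the 230 miRNAs with a mean of at least 100 CPM it was under 0.25 for 213 (92.6%). For 193 of these 230 (83.9%), the 95% interval of the log2 fold change lay wholly within 0.5 on either side of 0, and with the block it did so for 213 (92.6%). For those 193 miRNAs a log2 difference of 0.5 or more lay outside the interval. Over all 628 the interval lay within 0.5 for 333 (53%) and within 1 for 560 (89.2%).

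**Figure D1:**
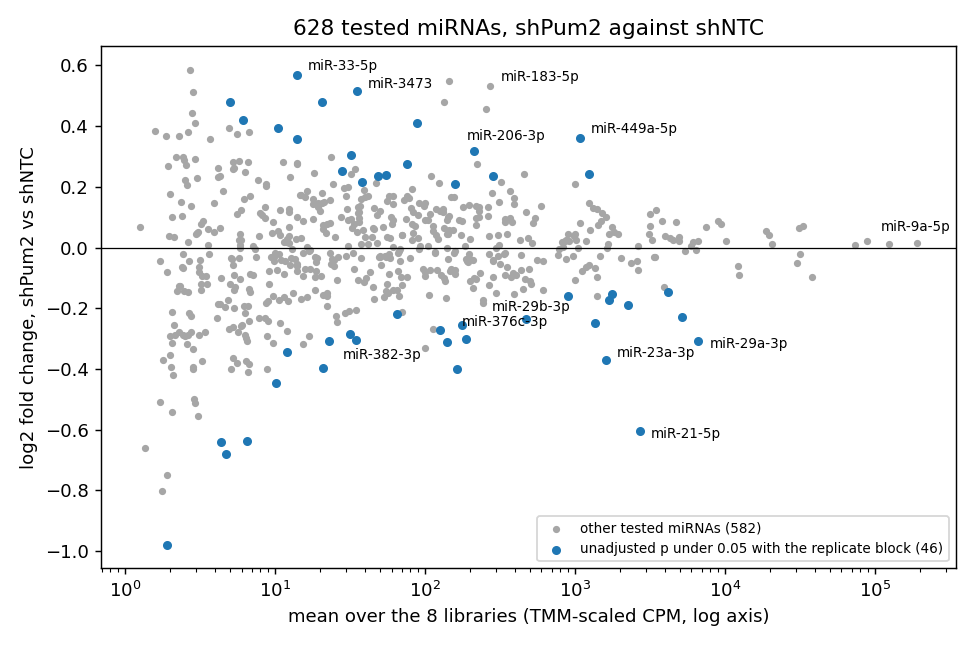
Log2 fold change of shPum2 against shNTC from the fit without the replicate block (vertical axis) against the mean level over the 8 libraries (horizontal axis, TMM-scaled CPM, log axis), 1 point per tested miRNA. Blue points are the 46 miRNAs with an unadjusted p under 0.05 with the replicate block, and the spread of the points narrows from low to high levels, with all 628 between -0.98 and 0.59.

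The miRNA that passed with the block, miR-23a-3p, is made with miR-27a and miR-24 from 1 primary transcript and is abundant in astrocytes and endothelium as well as present in neurons. Its mature sequence lies at chr19:40859778-40859798 on the minus strand of GRCr8, and no host gene is annotated over it. In CPM it stood at 2237, 1901, 1798 and 1383 in shNTC replicates 1 to 4 and at 1759, 1357, 1511 and 1034 in shPum2 replicates 1 to 4. The groups overlapped, but each shPum2 library lay below the shNTC library of its number, by log2 differences of -0.35, -0.49, -0.25 and -0.42. The means were 1829.5 ± 352 and 1415 ± 303 CPM (SD, n = 4). The log2 fold change was -0.37 (SE 0.18, 95% interval -0.76 to 0.01) without the block in edgeR, with adjusted p = 0.982. With the block it fell by 0.37 on the log2 scale (SE 0.07, interval -0.52 to -0.23, edgeR adjusted p = 0.0179). The call did not hold when only the 8 libraries were fitted with the block (log2 fold change -0.37, edgeR adjusted p = 0.676), nor when any 1 of the 4 pairs was left out (edgeR adjusted p from 0.0922 to 0.234, log2 fold change from -0.41 to -0.32).

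The near-identical miR-23b-3p, made from a separate locus within Aopep, had a value near 0. It stood at 987, 829, 904 and 931 CPM in shNTC and at 874, 1007, 891 and 934 CPM in shPum2, with overlapping groups and a log2 fold change of 0.02 (95% interval -0.15 to 0.20). The difference between the 2 was not tested, and since their sequences part at 1 base, the assignment of reads between them is uncertain. Summed, the pair with the seed UCACAUU went from 2742 ± 373 to 2341 ± 276 CPM (SD, n = 4) and was lower in 4 of 4 pairs of libraries, by 0.29, 0.21, 0.17 and 0.23 on the log2 scale. The other strand of the miR-23a hairpin, miR-23a-5p, had 93.4, 123, 66.4 and 73.3 CPM in shNTC and 85.1, 123, 55.4 and 101 CPM in shPum2, a log2 fold change of 0.03. Of the neighbours on the transcript, miR-24-3p, which is also made with miR-23b, had a log2 fold change of -0.05 (interval -0.21 to 0.11) and miR-27a-3p of -0.11, with pairs at 0.16, -0.56, 0.17 and -0.33 in both directions. The scarcer strand miR-27a-5p had 28.4, 33.8, 15.1 and 18.6 CPM in shNTC and 25, 16.6, 15.6 and 15.8 CPM in shPum2, with overlapping groups and the widest difference in pair 2. Its log2 fold change was -0.40 (SE 0.28), close to that of miR-23a-3p, and -0.36 with the block (edgeR adjusted p = 0.601), short of a call. In the list of the miR-23, miR-27 and miR-24 clusters, 1 of 10 tested members fell with the block in edgeR, against 0.159% of all tested miRNAs, 0 rose, and the median log2 fold change was -0.08.

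**Figure D2:**
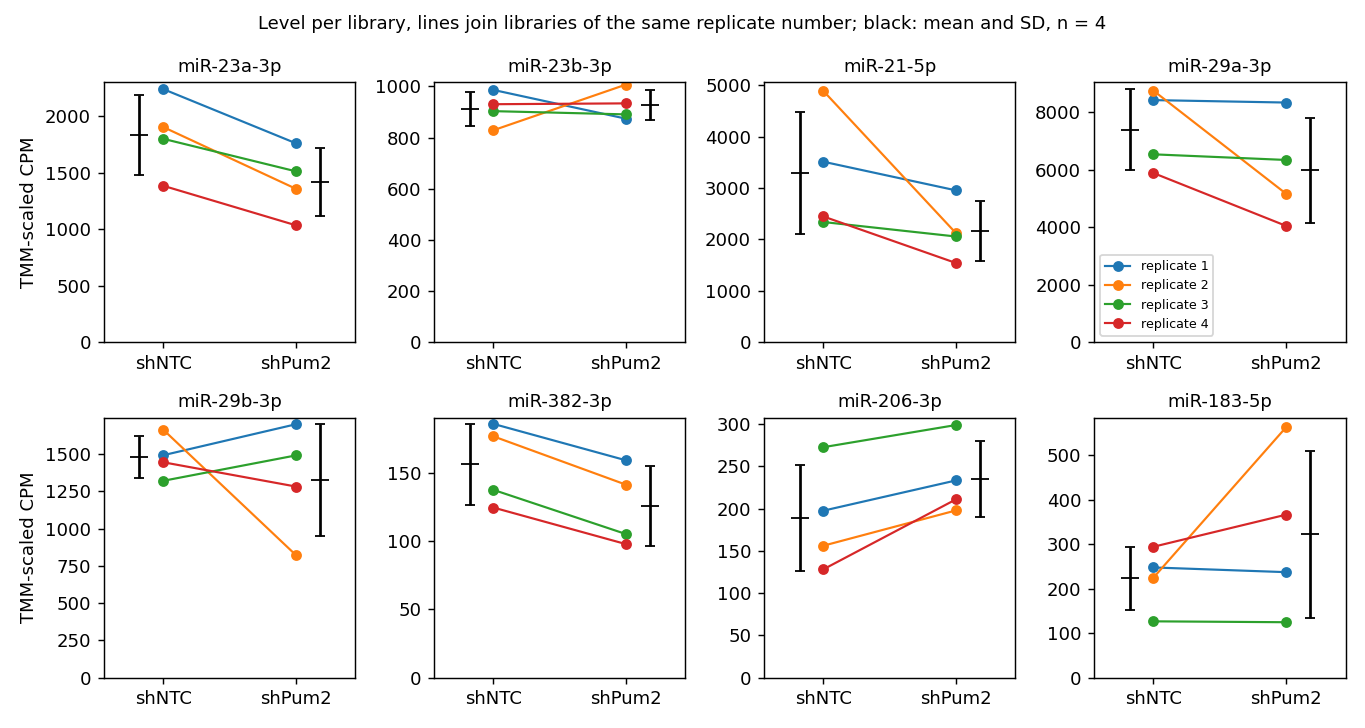
Level of 8 miRNAs in each library (vertical axes from 0, TMM-scaled CPM) in shNTC and shPum2, with colored lines joining libraries of the same replicate number and black bars giving the mean and SD of 4 libraries. All 4 lines slope down for miR-23a-3p, miR-21-5p and miR-382-3p and up for miR-206-3p, while the line of number 2 alone is steep for miR-29b-3p and miR-183-5p.

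The largest difference among miRNAs above 1000 CPM was that of miR-21-5p, which is high in astrocytes and many dividing cells and lies at chr10:71902653-71902674 on the minus strand of GRCr8. In CPM it stood at 3514, 4891, 2340.0 and 2448 in shNTC and 2956, 2125, 2058 and 1543 in shPum2. The groups overlapped, the highest library was shNTC replicate 2, and each shPum2 library lay below its partner, by log2 differences of -0.25, -1.20, -0.18 and -0.67. The log2 fold change was -0.60 (SE 0.26, 95% interval -1.17 to -0.04, edgeR adjusted p = 0.982) and with the block -0.58 (SE 0.15, edgeR adjusted p = 0.388), so it did not pass in edgeR. In DESeq2 with the block it passed, with adjusted p = 0.00364. Without shNTC replicate 2 the value was -0.34. Its partner strand miR-21-3p had a log2 fold change of -0.41, which lay between -0.63 without shPum2 replicate 1 and -0.26 without shNTC replicate 2.

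Both miRNAs belong to the list of astrocyte miRNAs, in which 10 of 12 tested members had negative and 2 positive log2 fold changes, with a median of -0.16. The 12 include both, their partner strands and strands of miR-27a and miR-24, so this count is not separate from the 2. The rest are strands of miR-193a and miR-193b at means of only 4.36 to 5.63 CPM. Also scarce were miR-21-3p at 6.63 CPM and miR-24-2-5p at 2.31 CPM. With the block in edgeR 1 of the 12 fell, against 0.159% of all tested miRNAs, 0 rose, and 4 had an unadjusted p under 0.05, against 7.32% of all. DESeq2 with the block called 2 of the 12 lower, and 0 were called in either tool without the block. The summed level of the list ranged from 6918 to 9723 CPM in shNTC and from 5629.6 to 7714 CPM in shPum2, and no member was at 0 in all 8 libraries. In such bulk libraries fewer cells of a type and less RNA per cell cannot be told apart, and the part of glial cells in the result for miR-23a-3p was not tested. The miRNAs of other cells did not lean the same way throughout. Oligodendrocyte miRNAs had a median of -0.04 over 6, with summed levels of 244 to 363 CPM in shNTC and 259.9 to 430.3 in shPum2. Those of blood or microglia had a median of -0.03 over 10 and those of the choroid plexus or ciliated cells of -0.09 over 11. Of these 11, 3 had an unadjusted p under 0.05 in edgeR with the block, and they went both ways. Without the block miR-34c-5p had a log2 fold change of -0.40, miR-449a-5p of 0.36 and miR-449c-5p of 0.48. Those of vessels, mesenchyme or muscle had a median of 0.09 over 15, with summed levels of 1977 to 2242 CPM in shNTC and 2009 to 2469.8 in shPum2. With the block in edgeR, 2 of these 15 and 0 of the oligodendrocyte and blood or microglia miRNAs had an unadjusted p under 0.05. In none of these 4 lists did a member pass with or without the block.

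The most abundant miRNAs were ones known from neural cells, as the label of the cultures has it, and they did not differ detectably. The order of abundance began with miR-9a-5p of neural progenitors and neurons, then miR-125b-5p of the lin-4 family, then the neuronal miR-128-3p. Next came let-7c-5p and then miR-9a-3p. Their log2 fold changes were 0.01, 0.01, 0.02, 0.01 and -0.10. The 95% interval was -0.17 to 0.19 for miR-9a-5p and -0.16 to 0.20 for miR-128-3p. The largely neuron-specific miR-124-3p had 4855, 4062, 4929 and 5598 CPM in shNTC and 4779, 5224, 5123 and 4788 CPM in shPum2, with overlapping groups and a log2 fold change of 0.03 (interval -0.16 to 0.23). Across the list of neuron-enriched miRNAs, 0 of 23 passed in either direction with or without the block, the median was 0.00, and the members spanned only -0.13 to 0.15.

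Among miRNAs linked to neuronal activity or dendrites, 0 of 13 passed, with a median of -0.01. The activity-induced miR-132-3p, made from a CREB-responsive transcript, had 1879, 1829, 1853 and 1602 CPM in shNTC and 1506, 1702, 1590.5 and 1551 CPM in shPum2. It was lower in each of the 4 pairs, by log2 differences of -0.32, -0.10, -0.22 and -0.05, and the groups overlapped. For miR-132-3p that gave a log2 fold change of -0.17 (95% interval -0.36 to 0.01), short of a call in both fits. With its seed partner miR-212-3p (seed AACAGUC) the summed level was 1894 ± 136 CPM in shNTC and 1685 ± 87.7 CPM in shPum2 (SD, n = 4), lower in 4 of 4 pairs.

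The miRNAs tied to Pumilio proteins in earlier work did not differ detectably. They are miR-134, which represses Pum2 mRNA in dendrites, miR-221 and miR-222, whose site in the p27 mRNA is opened by Pumilio 1, and miR-503, which shares E2F3 mRNA with Pumilio. For miR-134-5p the levels were 1524, 1378, 1403 and 1513 CPM in shNTC and 1583, 1599, 1422 and 1578 CPM in shPum2. Each shPum2 library stood above its partner, the groups overlapped, and the log2 fold change was 0.09 (95% interval -0.08 to 0.25). The means of miR-221-3p were 2636 ± 209 and 2557 ± 100.1 CPM (log2 fold change -0.04, interval -0.21 to 0.12), those of miR-222-3p 372 ± 45.7 and 394 ± 37.7 CPM (0.08, interval -0.14 to 0.31), and those of miR-503-5p 39.2 ± 10 and 40.2 ± 2.79 CPM (0.03). Of the 8 tested strands 0 passed in either fit, 6 had positive and 2 negative values, and the median was 0.06.

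The Pumilio recognition motif UGUANAUA was looked for on the hairpin strand of the RefSeq miRNA hairpins, and 2 of 419 held it (0.477%). Mir129-2 holds UGUACAUA and Mir10a holds UGUAUAUA. From each hairpin 1 strand was tested under its RefSeq name, and neither passed the threshold. For miR-129-5p the log2 fold change was 0.07 (SE 0.13) and for miR-10a-5p, a miRNA of the Hox clusters, -0.38 (SE 0.24). The tested name miR-129-3p was not matched by name to Mir129-2. It had a log2 fold change of -0.13 at a mean of 209.5 CPM. Of the matched mature sequences 0 held the motif. A match is a description of letters and not a site of binding.

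The miR-29 family, known to build up during neuronal maturation, had its lower values in the pairs numbered 2 and 4. Its most abundant member, miR-29a-3p, had 8410.4, 8739.6, 6527 and 5878 CPM in shNTC and 8326, 5164, 6332 and 4045 CPM in shPum2. Pairs 1 and 3 were nearly level, and the log2 differences were -0.01, -0.76, -0.04 and -0.54. The log2 fold change was -0.31 (95% interval -0.78 to 0.17) and with the block -0.33 (edgeR adjusted p = 0.417). Single libraries moved the value without the block to -0.16 (without shPum2 replicate 4), -0.20 (without shNTC replicate 2) and -0.50 (without shPum2 replicate 1). For miR-29b-3p the levels were 1492, 1663, 1320.2 and 1444 CPM in shNTC and 1699, 822, 1490.4 and 1282 CPM in shPum2. The library shPum2 replicate 2 lay well below the other 7. The log2 fold change of -0.16 (interval -0.56 to 0.24) became 0.03 without that library. The value of miR-29c-3p was 0.02. With the seed AGCACCA the 3 guide strands summed to 10041 ± 1545 CPM in shNTC and 8479 ± 2367 CPM in shPum2 (SD, n = 4), with pairs at 0.05, -0.75, 0.04 and -0.44. Of 6 family members tested 0 passed, 5 had negative and 1 a positive value, and the median was -0.13.

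The miR-183 cluster with miR-96 and miR-182, known from sensory cells, had the highest median of the lists, 0.43 over 4 tested members, all with positive values and 0 past the threshold. Of the 4, 2 were higher in 4 of 4 pairs, against 6.37% of all tested miRNAs. With the block in edgeR 1 had an unadjusted p under 0.05, against 7.32% of all. It was miR-96-5p, at a mean of 89.3 CPM, with a log2 fold change of 0.41, or 0.40 with the block (edgeR unadjusted p = 0.0198). For miR-183-5p and miR-182 pair 2 had the largest differences. In CPM miR-183-5p stood at 248, 225, 127 and 294 in shNTC and 237, 562, 125 and 366 in shPum2. Pairs 1 and 3 were level and pair 2 differed by 1.32 on the log2 scale. The log2 fold change was 0.53 (95% interval -0.42 to 1.49), and 0.15 without shPum2 replicate 2. For miR-182 the pairs were 0.02, 1.24, 0.09 and 0.17. Only in pair 2 did a miRNA with a mean of at least 100 CPM differ by more than 1 on the log2 scale, and 6 did so: miR-143-3p, miR-182, miR-183-5p and miR-199a-3p higher in shPum2, miR-21-5p and miR-29b-3p lower. Of these, miR-143-3p and miR-199a-3p are mesenchymal, and in the 4 pairs miR-199a-3p differed by 0.12, 1.31, -0.10 and 0.10.

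The Dlk1-Dio3 cluster is a large imprinted group of miRNAs made mainly in brain, with a median of 0.01 over 84 tested members. With the block, 0 members passed in edgeR and 7 had an unadjusted p under 0.05, near the 7.32% of all tested miRNAs. Of the 84 members, 5 were lower and 4 higher in 4 of 4 pairs, also near the shares over all, which were 6.85% and 6.37%. In CPM miR-382-3p had 186, 177, 137 and 124 in shNTC and 159, 141, 105 and 97.7 in shPum2. The groups overlapped, the pairs differed by -0.22, -0.32, -0.39 and -0.35, and the log2 fold change was -0.31, or -0.32 with the block (SE 0.09, edgeR adjusted p = 0.388). Its far more abundant partner strand miR-382-5p had means of 4598 ± 323 and 4875 ± 328 CPM (log2 fold change 0.08).

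Another member, miR-376c-3p, had 237, 213, 191 and 188 CPM in shNTC and 187, 179, 184 and 123 CPM in shPum2. Here the groups did not overlap, and shPum2 replicate 4 lay well below the other 3. Its log2 fold change was -0.30, or -0.18 without that library, and with the block -0.31 (edgeR adjusted p = 0.388). The cluster member miR-369-3p was lower in each pair, by log2 differences of -0.15, -0.25, -0.14 and -0.47, and miR-127-3p, the most abundant member along with miR-382-5p, had a log2 fold change of 0.08.

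No miRNA with a positive value was called in edgeR with all 4 pairs. The muscle-type miR-206-3p had 198, 156, 273 and 128 CPM in shNTC and 233, 198, 299 and 211 CPM in shPum2. The groups overlapped, each shPum2 library was above its partner, and the log2 fold change was 0.32 (95% interval -0.12 to 0.76), or 0.35 with the block (edgeR adjusted p = 0.388). Without the block it was 0.17 when shNTC replicate 4 was left out, 0.18 without shPum2 replicate 3 and 0.55 without shNTC replicate 3. Its seed partner miR-1-3p had a log2 fold change of -0.03. Another tested seed partner, miR-1b, went the other way from miR-206-3p. Its raw counts, not scaled for depth, were 249, 189, 168 and 124 in shNTC and 166, 141, 142 and 105 in shPum2. Summed, the seed GGAAUGU went from 235 ± 64.6 to 274 ± 45.4 CPM (SD, n = 4) and was higher in 4 of 4 pairs. For miR-3473 the levels were 28, 28.6, 20.4 and 39.2 CPM in shNTC and 32.1, 43.4, 23.9 and 65.9 CPM in shPum2. It was higher in 4 of 4 pairs, with overlapping groups and a log2 fold change of 0.51, or 0.47 with the block (edgeR adjusted p = 0.279). Without shPum2 replicate 4, its highest library, the value without the block was 0.19.

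Both miRNAs called only without pair 2 were higher in shPum2. In CPM miR-33-5p, which lies within the sterol regulator gene Srebf2 and represses cholesterol export, stood at 8.08, 12.8, 11.8 and 13 in shNTC and 19, 9.41, 22 and 16.6 in shPum2. Pair 2 ran against the others, and the log2 fold change was 0.57 (95% interval 0.08 to 1.06). With the block it was 0.56 (edgeR adjusted p = 0.417), and without pair 2 it was 0.85 (edgeR adjusted p = 0.0324). Leaving out pair 1 gave 0.36 (edgeR adjusted p = 0.655), pair 3 0.42 (0.676) and pair 4 0.62 (0.608). The ciliated-cell miRNA miR-449a-5p had 604, 1496, 1207 and 485 CPM in shNTC and 1159, 1299, 1675 and 735 CPM in shPum2. Pair 2 again ran against the others, at -0.20, and the libraries within a group differed widely. The log2 fold change was 0.36, or 0.46 with the block (edgeR adjusted p = 0.601), and without pair 2 it was 0.68 (edgeR adjusted p = 0.00383). Without pairs 1, 3 and 4 in turn it was 0.33, 0.47 and 0.42, none of them called. Single libraries moved the value without the block to 0.14 (without shNTC replicate 4), 0.17 (without shPum2 replicate 3), 0.20 (without shNTC replicate 1) and 0.68 (without shNTC replicate 2).

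**Figure D3:**
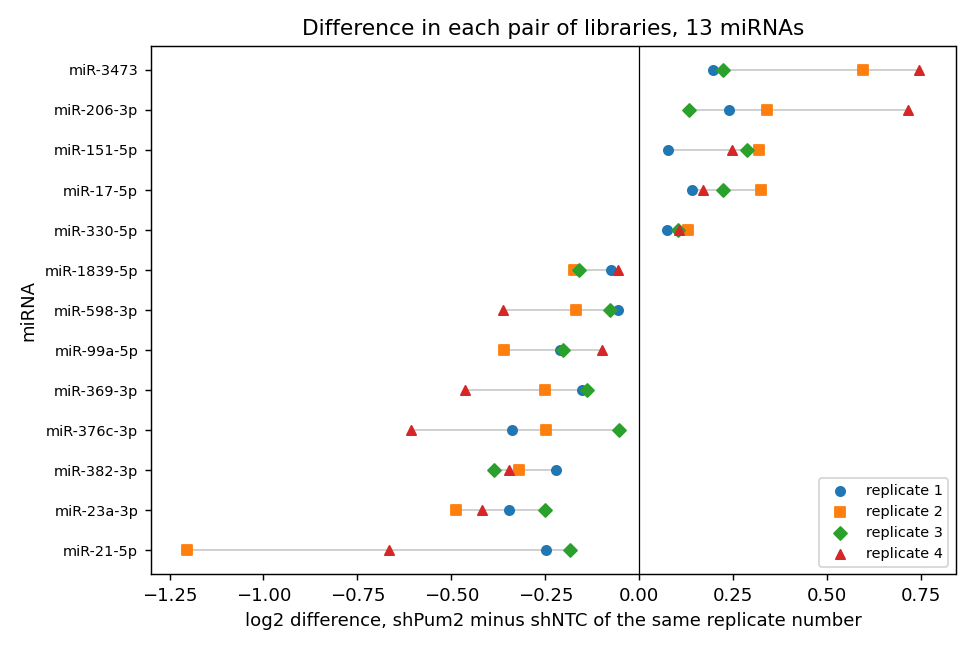
Log2 difference between the shPum2 and the shNTC library of the same replicate number (horizontal axis) for 13 miRNAs (vertical axis) that had 1 sign in 4 of 4 pairs, 1 symbol per pair, with a line from the lowest to the highest. The 4 symbols of miR-330-5p and miR-382-3p lie close together, whereas those of miR-21-5p run from -1.20 to -0.18.

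Across the 628 tested miRNAs, 40 were higher in shPum2 in 4 of 4 pairs (6.37%) and 43 lower (6.85%). Values of all 4 shPum2 libraries lay below all 4 shNTC libraries for 5 miRNAs (0.796%) and above them for 2 (0.318%). The 5 were miR-20b-3p, miR-2985, miR-376c-3p, miR-471-5p and miR-598-3p, and the 2 were miR-347 and miR-3559-3p, of which all but miR-376c-3p and miR-598-3p were named after their values were seen. The neuronal miR-598-3p was steady in shNTC, at 957, 945, 953 and 948 CPM, and had 920.1, 841, 904 and 737 CPM in shPum2, with a log2 fold change of -0.16, or -0.10 without shPum2 replicate 4. Of the more abundant miRNAs with 1 sign in every pair, the proliferation-linked miR-17-5p had pair differences of 0.14, 0.32, 0.22 and 0.17 and miR-99a-5p of -0.21, -0.36, -0.20 and -0.10. Among the smallest unadjusted p without the block, miR-298-5p had a log2 fold change of 0.24. The scarcer miR-135a-3p, miR-188-5p, miR-667-3p and miR-363-3p had 0.36, 0.31, 0.25 and 0.24. Lower were miR-181b-1-3p (-0.45), let-7f-1-3p (-0.31) and miR-582-3p (-0.29). Each had edgeR adjusted p = 0.982, and of these only miR-181b-1-3p, at a mean of 10.1 CPM, kept 1 sign in 4 of 4 pairs. When the 563 tested miRNAs with a matched sequence were summed by shared seed, 37 seeds had several members and a summed mean of at least 100 CPM. Unmatched names such as miR-99a-5p were left out of these sums, so some seed groups were incomplete. Of these seeds, 4 were higher in 4 of 4 pairs and 3 lower. Of 126 hairpins with both strands at 10 CPM or more, 71 had log2 fold changes of the same sign on both strands.

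The other lists also held 0 members past the threshold in either fit. Medians of the log2 fold change were 0.01 over the 19 tested strands of the let-7 family, -0.02 over the 22 of the miR-17 cluster and paralogs, 0.03 over the 11 of the miR-30 family and 0.03 over the 10 of the miR-181 family. The most abundant member of each was close to level: let-7c-5p had 0.01, miR-93-5p 0.05, miR-30d-5p 0.02 and miR-181a-5p 0.04. The epithelial miR-200 family had the lowest median, -0.23 over 7, at summed levels of only 19.1 to 28.6 CPM in shNTC and 19.9 to 21.8 CPM in shPum2. The p53-responsive miRNAs had a median of -0.14 over 8, with miR-34a-5p at -0.19 and miR-34c-5p at -0.40. With the block in edgeR 2 of the 8 had an unadjusted p under 0.05, against 7.32% of all tested miRNAs. In 4 of 4 pairs 3 of the 8 were lower, against 6.85% of all. Strands of miR-34b and miR-34c also belong to the list of the choroid plexus or ciliated cells. The median was -0.06 over 15 miRNAs subject to decay directed by their targets, and 0.11 over 8 that bypass Drosha or Dicer, among them miR-320-3p at 0.10.

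**Figure D4:**
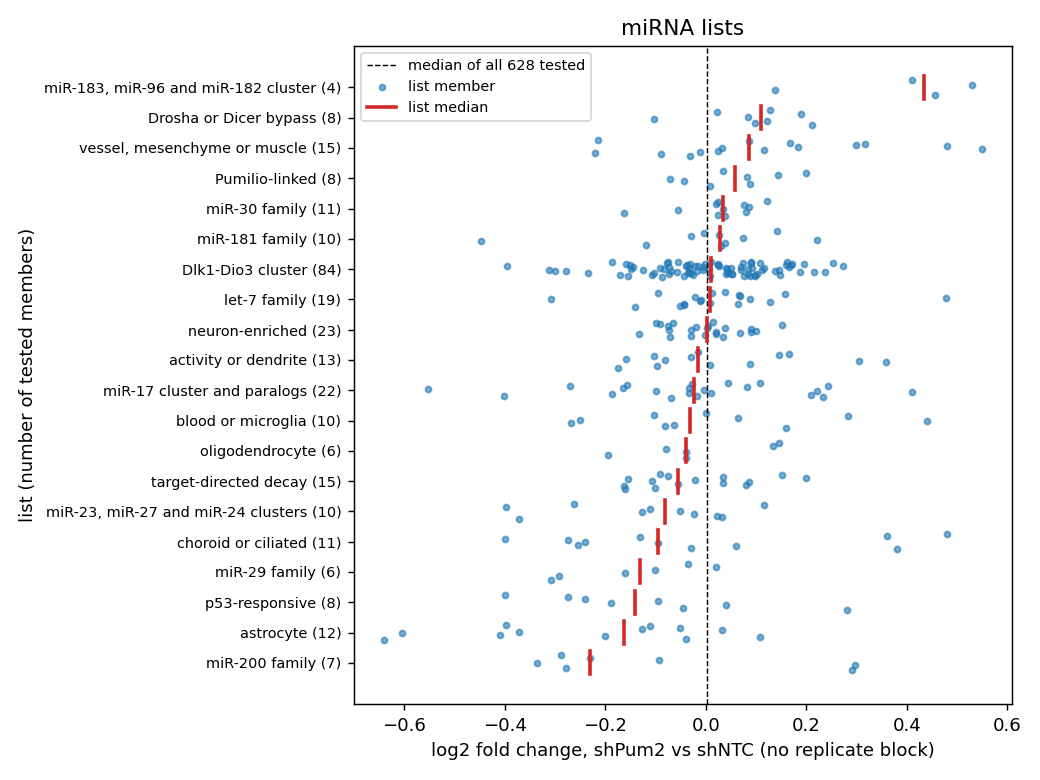
Log2 fold change of shPum2 against shNTC without the replicate block (horizontal axis) for the tested members of 20 lists (vertical axis, number of tested members in brackets), 1 point per miRNA and a red bar for the median of the list. The dashed line is the median of all 628 tested miRNAs, 0.00, and list medians run from -0.23 for the miR-200 family to 0.43 for the miR-183 cluster.

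The shStau2 libraries, which share the shNTC controls with this comparison, had 1301 ± 243 CPM of miR-23a-3p, 1648 ± 305 CPM of miR-21-5p and 662 ± 121 CPM of miR-29b-3p (SD, n = 4). The corresponding levels in shPum2 were 1415 ± 303, 2171 ± 585 and 1323 ± 375 CPM, and in shNTC 1829.5 ± 352, 3298 ± 1187 and 1479.8 ± 142 CPM. Because the controls are shared, no relation between the comparisons was computed.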

How the data were processed

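Each library had a deposited table of raw counts, whole numbers for each small RNA name, with no normalization. Per the labels' protocols, total RNA with an integrity number of 9.5 was batch-isolated and libraries carried unique molecular identifiers. The sources used here do not say if counts are molecules or reads, or name the aligner and counter, so the floor of 3 counts (0.588 to 0.763 CPM) covers counting error only. Per the submitters' processing notes, Rnor 6.0 was the build. Near-identical miRNAs may have exchanged reads, and 7 names combine several miRNAs.

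All 12 libraries were fitted by group in edgeR 4.0.16 (R 4.3.3) with TMM scaling, the filterByExpr filter (628 names kept, 57 removed) and the robust quasi-likelihood test. P-values were two-sided and Benjamini-Hochberg adjusted over the 628. They rest on the spread between cultures within the groups, the shStau2 libraries included in fits of all 12. With the block they rest on the spread left once the replicate number is taken out. Same-numbered libraries had correlations over the limit of 0.1, so the numbers were taken to pair them. Pair differences used log2 CPM with a prior count of 2. Alternatives were a replicate block, 8 libraries only, other scaling factors and filters, DESeq2 1.42.0 and leaving out each replicate. The block with other scaling factors was chosen after seeing the data. The fits were tested on simulated data.

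The 62 named miRNAs were the 6 higher and 6 lower with the smallest p at 10 CPM or more, the 5 with the smallest p with the block, all calls, the 5 most abundant, the 2 most abundant of each of 20 lists, up to 10 at 100 CPM or more without overlap and up to 10 with 1 sign in every pair, and both arms of those with the smallest p with the block. Not all of them are described above. Others were chosen after their values were seen, as arm, seed or cluster partners or Pumilio-linked miRNAs. Members and lists were chosen with earlier results of these data known. Lists were described by counts and medians, without a test.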

Additional observations from a re-analysis of the deposited data

Results flagged for a closer look

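A library lay far from the other 3 of its group in 10 of 132 groups of 4 examined. The 132 are not all of named miRNAs, but the 10 are. Chance gives such a gap in about 1 of 20 groups. In shNTC, miR-298-5p, made from the imprinted Gnas locus, was low in replicate 2 at 957.3 CPM (others 1184 to 1213). The cartilage-linked miR-140-3p was low there too, at 861 CPM (others 874 to 876). In the same group miR-667-3p was high in replicate 4 at 27.2 CPM, and miR-181b-1-3p was high in replicate 3 at 14.5 CPM.

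In shPum2, replicate 4 was low for miR-376c-3p at 123 CPM, which lies among the miRNAs whose groups did not overlap. Replicate 3 was high for the most abundant miRNA, miR-9a-5p, at 221436 CPM, and low for miR-134-5p at 1422 CPM. Replicate 2 was high for miR-192-5p at 299.0 CPM (others 275 to 279) and for the choroid plexus miRNA miR-204-5p at 1893 CPM (others 1273 to 1368). It was low for the endothelial miR-126a-3p at 367 CPM (others 401 to 403).

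Outside the miRNA names, 90 piRNA names were tested in a joint fit with the miRNAs. Without the block 0 passed in edgeR (5 with an unadjusted p under 0.05), and with it 1 passed (10 unadjusted). That name, piR_009003, had 33.1, 26.2, 27.8 and 58.8 CPM in shNTC replicates 1 to 4 and 43.9, 45.6, 37.4 and 100.7 CPM in shPum2 replicates 1 to 4. It was higher in 4 of 4 pairs, by log2 differences of 0.41, 0.80, 0.43 and 0.78, with overlapping groups. With the block it rose by 0.60 on the log2 scale (SE 0.10, edgeR adjusted p = 0.00404), and without the block its adjusted p was 0.988. The shStau2 libraries, measured against the same controls, had 48.0 ± 20.5 CPM (SD, n = 4).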

How the results depend on the processing

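Without the replicate block, 0 miRNAs passed under every alternative: 8 libraries only, RLE, upper-quartile or library-total scaling, no filter, a mean of 10 CPM, DESeq2, and without each replicate in turn (0 to 0). With the replicate block 1 passed, miR-23a-3p. It also passed with RLE, upper-quartile and library-total scaling (edgeR adjusted p = 0.0240, 0.0306 and 0.0154). Among blocked fits, 0 passed with the 8 libraries only, 2 passed in DESeq2, and between 0 and 2 passed without each pair in turn. Calls among piRNA names went from 0 to 1 with the block. Of 1043 alternative log2 fold changes, 9 gained or lost a call or changed sign from a value beyond 1 SE of 0. A further 64 changed sign while within 1 SE of 0. Most of the 1043 were set against the fit without the block, which called 0, for the 62 named miRNAs. Only miR-23a-3p, miR-21-5p, miR-29a-3p, miR-29b-3p, miR-33-5p and miR-449a-5p were also set against the blocked fit. Most of the 9 changes fell there. The call of miR-23a-3p was lost with the 8 libraries only and without each pair in turn. Calls were gained by miR-21-5p in DESeq2 and by miR-33-5p and miR-449a-5p without pair 2. The counts of calls given above are not part of the 1043. The cause was not tested, beyond the fewer libraries in the fits with 8 or without a pair. With the block, the 95% interval lay within 1 on the log2 scale for 583 of 628 miRNAs, and the part of depth in its width was not tested.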
